A study of Homo sapiens with 4 samples.

Results

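MSX1, MSX2, DLX2, TBX2 and TBX3 are transcription factor genes that BMP is known to switch on in the embryo. They were selected on their names as developmental BMP targets, with the dox against no dox contrast of these libraries already in view. Their changes are therefore described, and nothing is read from the p-values that the test over all genes gave them. All 5 of the 5 genes were found among the 58302 genes of the deposited files. BMP ligands bind paired type I and type II receptors, which phosphorylate SMAD1, SMAD5 and SMAD9; these join SMAD4 and enter the nucleus to act on target genes. MSX and DLX proteins carry a homeodomain and TBX proteins a T-box, both DNA-binding domains, and as BMP responders they help to pattern limb, tooth, face and heart. In the lung, TBX2 and TBX3 are best known from the embryonic mesenchyme.

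The libraries came from NCI-H838, a line from human non-small-cell lung cancer, in the form called MIB1-iKO, in which doxycycline (dox) switches on Cas9 beside a guide RNA that targets MIB1. MIB1 encodes the E3 ubiquitin ligase Mind Bomb 1. Cells were collected at day 3, 2 samples without dox and 2 given dox, 0.5 μg/mL in the labels, and no BMP ligand or receptor inhibitor is named for either group. Per the study's methods MIB1-iKO lines are single-cell clones, but the labels name neither the clone nor the guide, and the samples include no dox-treated cells without the guide, so the effects of dox, of Cas9 and of the loss of MIB1 cannot be told apart. The comparison asks whether these developmental targets moved in the direction known for BMP, which is upward.

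The total counts ranged from 15943025 to 24398411 and were lower in both dox libraries. MIB1 had 598 and 588 reads in no dox replicates 1 and 2 and 90 and 59 reads in dox replicates 1 and 2, in the direction of the labels (log2 fold change -2.58, SE 0.23, adjusted p = 0.000375 in limma). Of 6 epithelial marker genes 5 were detected, and KRT19 had 0 reads in every library; their summed RPKM (a level per length of gene and per depth, made by the authors) was 116 and 125 without dox and 103 and 107 with dox. Of the 5, KRT8 and KRT18 had negative log2 fold changes (-0.34 and -0.41) and EPCAM, CDH1 and KRT7 positive ones. None was called by limma, but 2 (KRT8 and KRT18) had an unadjusted p under 0.05, as did 9.28% of all genes tested. In RPKM both dox libraries lay below both no dox libraries for KRT8 and KRT18, as for 20.5% of all genes. For EPCAM, CDH1 and KRT7 both lay above, as for 18.1%. Of 9 markers of blood, endothelial and mesenchymal cells, PTPRC, CD68 and COL1A2 had 0 reads, and the sum was 0.739 and 0.727 RPKM without dox and 0.347 and 0.896 RPKM with dox. Most of that sum was COL1A1, a mesenchymal collagen gene, with 89, 82, 22 and 83 reads in the same order.

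Sequence upstream of the start site is shown for DLX2 and MSX1. In these members alone the dox and no dox libraries did not overlap on either scale used below, in opposite directions. Such gaps were common. In counts scaled to the library total, 18.7% of all genes tested had both dox libraries above both no dox libraries and 17.4% both below. In RPKM the shares were 18.1% and 20.5%. The choice of these 2 genes serves display only. RefSeq windows were found for 3 of the 5 genes (DLX2, MSX1 and MSX2). The 250 bases before the start, on GRCh38.p14, were searched on both strands. The motifs were GGCGCC and CAGAC, which SMAD proteins bind, the SMAD palindrome GTCTAGAC, the T-box core AGGTGT and CAATTA, 1 form of homeodomain site. Other forms of homeodomain site were not searched. Capitals mark a match, and no matches overlapped. The DLX2 window, chr2:172102901-172103150 on the minus strand, and the MSX1 window, chr4:4859415-4859664 on the plus strand, are printed 5′ to 3′ with the start site just after the last base.
DLX2: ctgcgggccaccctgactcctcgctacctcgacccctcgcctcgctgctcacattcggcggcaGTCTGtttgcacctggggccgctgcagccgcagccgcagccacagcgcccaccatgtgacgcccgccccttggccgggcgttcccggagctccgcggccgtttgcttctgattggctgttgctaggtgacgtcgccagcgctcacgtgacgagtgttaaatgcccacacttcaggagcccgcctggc
MSX1: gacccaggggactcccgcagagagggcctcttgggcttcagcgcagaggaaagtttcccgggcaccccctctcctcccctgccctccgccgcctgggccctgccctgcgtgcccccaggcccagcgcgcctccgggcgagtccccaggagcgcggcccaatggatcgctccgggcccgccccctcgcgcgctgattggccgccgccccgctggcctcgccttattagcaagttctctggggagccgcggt
The only match to the motifs searched in the 3 windows was 1 CAGAC in DLX2, on the strand opposite to the gene. Its first printed base lies 187 bases before the start. Among 35116 RefSeq windows of the same length, 38% held CAGAC, 16.4% held GGCGCC, 9.57% AGGTGT, 6.7% CAATTA and 0.182% GTCTAGAC, so a single CAGAC is common. The share of G and C was 74% for MSX1, 68% for DLX2 and 55.6% for MSX2, against a median of 58%. These counts describe the letters in the windows and say nothing of binding.

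All 5 genes were transcribed at low levels. On the RPKM scale, which allows genes to be compared per length, the mean over the 4 libraries was 2.77 for MSX2, 1.38 for DLX2, 0.559 for MSX1, 0.309 for TBX3 and 0.178 for TBX2. MSX2 lay above 41.9% of the 16181 genes tested, DLX2 above 28.0%, MSX1 above 12.9%, TBX3 above 6.53% and TBX2 above 2.58%. The lowest MSX2 library, at 2.50 RPKM, stood above the highest DLX2 library, at 1.86, and the lowest DLX2 library, at 0.989, above the highest MSX1 library, at 0.680. MSX1 and TBX3 overlapped over the 4 libraries, since MSX1 reached down to 0.440 RPKM and TBX3 up to 0.458, and so did TBX3 and TBX2, with TBX3 reaching down to 0.137 and TBX2 up to 0.342. In bulk RNA, fewer cells that express a gene and less RNA per cell cannot be told apart.

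**Figure D1:**
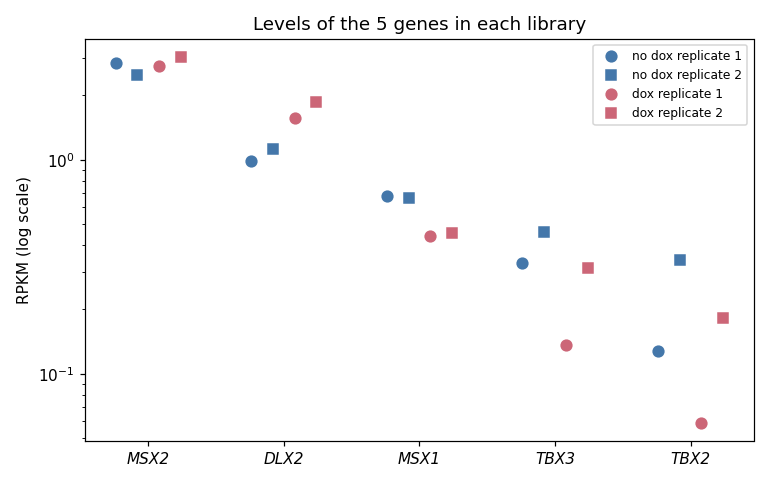
RPKM of each gene in the 4 libraries, on a log scale, in order of mean level (blue, no dox; red, dox; circles, replicate 1; squares, replicate 2). MSX2 lies highest, between 2.50 and 3.01 RPKM, and TBX2 lowest, between 0.0589 and 0.342 RPKM.

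Set against the upward direction known for BMP, the members divided, as did the genes at large. DLX2 and MSX2 had a positive log2 fold change with dox and MSX1, TBX2 and TBX3 a negative one. Of all 16181 genes tested, 8080 had a positive value and 8101 a negative one. The value of MSX2 (0.11, SE 0.21) was smaller than its standard error. The median of the 5 was -0.63, where the median over all genes tested was 0.00 (-0.00042). In counts scaled to the total of each library (CPM), 1 member (DLX2) had both dox libraries above both no dox libraries, as did 18.7% of all genes tested, and 1 member (MSX1) had both below, as did 17.4%. In RPKM, which carries a further scaling per library by the authors, 1 member (DLX2) was above, against 18.1% of all genes, and 2 (MSX1 and TBX3) were below, against 20.5%. A call required both an adjusted p not above 0.05 and a log2 fold change of at least 1 in either direction. By limma 0 of the 5 were called, where 0.0371% of all genes were. By edgeR and DESeq2 0 members were called as well, where 6 and 5 of the 16181 genes tested were. At an unadjusted p under 0.05 in limma there was 1 member (DLX2), where 9.28% of all genes were. The contrast was in view when the genes were chosen, so nothing is read from these counts.

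Among the homeobox genes, DLX2, a partner of DLX1 in forebrain and jaw development, was covered by 69 and 73 reads in no dox replicates 1 and 2 and by 71 and 100 in dox replicates 1 and 2. Its level was 2.83 and 3.44 CPM without dox and 4.45 and 5.87 CPM with dox. Both dox libraries stood above both no dox libraries, although the exact 95% Poisson intervals of the nearest pair overlapped, from 2.70 to 4.33 CPM in no dox replicate 2 and from 3.48 to 5.62 CPM in dox replicate 1; such intervals cover counting error only. In RPKM the means were 1.06 ± 0.0949 without dox and 1.71 ± 0.204 with dox (n = 2 and 2, SD), so the ratio was 1.62. This gave a log2 fold change of 0.68 ± 0.25 (SE), and with 1 library left out it lay between 0.54 and 0.82.

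DLX2 occupies chromosome 2, 172099438 to 172102900, minus strand of GRCh38, 9761 bp from DLX1, which runs the other way. DLX1 drew 141 and 178 reads in the no dox and 159 and 177 in the dox libraries, for a log2 fold change of 0.56 (SE 0.20, adjusted p = 0.408 in limma). As in DLX2, both dox libraries of DLX1 lay above both no dox libraries in CPM, a difference that did not pass the test over all genes. On the other side, DLX2-DT, a long noncoding RNA gene on the plus strand, begins 106 bp from DLX2. DLX2-DT had 30, 39, 20 and 35 reads in no dox replicates 1 and 2 and dox replicates 1 and 2, with overlapping groups and a log2 fold change of 0.03 (SE 0.38, adjusted p = 0.988 in limma). The exons of the 2 genes share no base, and for ITGA6, the nearest coding gene beyond, the log2 fold change stood at -0.30 (SE 0.14, adjusted p = 0.526 in limma).

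MSX2, which acts in skull and tooth development, was the member with the most reads, 151 and 124 without dox and 95 and 124 with dox. That is 6.19 and 5.85 CPM in the no dox libraries and 5.96 and 7.27 CPM in the dox libraries. The groups overlapped, and dox replicate 2 alone stood above the other libraries. The RPKM means were 2.66 ± 0.237 without dox and 2.88 ± 0.189 with dox (n = 2 and 2, SD), so the ratio was 1.08, and the difference was no larger than the spread between replicates. This gave a log2 fold change of 0.11 ± 0.21 (SE), and it was 0.02 without no dox replicate 2 or without dox replicate 2. MSX2 occupies chromosome 5, 174724582 to 174730896, plus strand. Of its 2223 distinct 50-base stretches, the length of a read here, 60 also occur in annotated transcripts of OR4D1 and 10 in the pseudogene MSX2P1, so 2.7% of the gene is not unique. NSG2 and DRD1, the coding genes on either side of MSX2, had at most 1 read in a library.

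MSX1, a close relative of MSX2 that acts in tooth and palate development, drew 31 and 28 reads in the no dox and 13 and 16 in the dox libraries. It stood at 1.27 and 1.32 CPM in the no dox libraries and 0.815 and 0.938 CPM in the dox libraries. Both dox libraries lay below both no dox libraries, and the replicates of each group were close. With so few reads the exact Poisson intervals were wide, and those of the nearest pair overlapped. They ran from 0.863 to 1.80 CPM in no dox replicate 1 and from 0.536 to 1.52 CPM in dox replicate 2. The RPKM means were 0.670 ± 0.0146 without dox and 0.448 ± 0.0109 with dox (n = 2 and 2, SD), so the ratio was 0.668. On the log2 scale the fold change was -0.63 ± 0.41 (SE) and lay between -0.70 and -0.56 with 1 library left out. MSX1 occupies chromosome 4, 4859665 to 4863936, plus strand, and none of its 50-base stretches occurs in a transcript of another gene, which was also so for DLX2 and TBX2. For STX18, its nearest coding neighbour with reads, the log2 fold change stood at -0.26 (SE 0.18, adjusted p = 0.696 in limma), and CYTL1 on the other side had 0 reads.

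**Figure D2:**
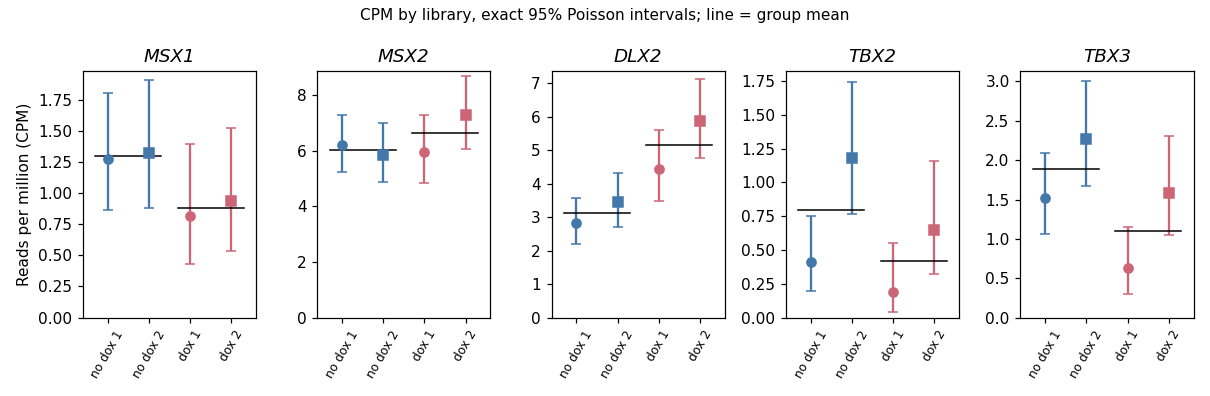
CPM of each gene in each library (blue, no dox; red, dox), with exact 95% Poisson intervals that cover counting error only and a line at each group mean; each panel has its own axis from 0. The dox libraries of DLX2 lie above and those of MSX1 below the no dox libraries, while MSX2, TBX2 and TBX3 overlap.

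The T-box genes TBX2 and TBX3 encode closely related repressors that share many sites of expression. TBX3 drew 37 and 48 reads in the no dox and 10 and 27 in the dox libraries. In CPM, no dox replicates 1 and 2 were at 1.52 and 2.26 and dox replicates 1 and 2 at 0.627 and 1.58. The groups overlapped in CPM, where dox replicate 2 stood just above no dox replicate 1, but not in RPKM, where the same libraries were at 0.311 and 0.329. The RPKM means were 0.394 ± 0.0914 without dox and 0.224 ± 0.123 with dox (n = 2 and 2, SD), so the ratio was 0.569. On the log2 scale the fold change was -0.92 ± 0.44 (SE), but it was -0.31 without dox replicate 1 and -1.56 without dox replicate 2.

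TBX3 occupies chromosome 12, 114670255 to 114684175, minus strand. TBX3-AS1, on the opposite strand, overlaps 196 of its 5960 exon bases (3.29%), and the strand setting of the counts is not given in the sources used here. TBX3-AS1 itself had 0 reads in 3 libraries and 3 reads in dox replicate 2. TBX5, the coding gene next to TBX3, had 0 reads in every library, and MED13L on the other side stood at a log2 fold change of 0.07 (SE 0.18, adjusted p = 0.941 in limma).

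TBX2 was the lowest of the members, with 10 and 25 reads in the no dox and 3 and 11 in the dox libraries. In CPM, no dox replicates 1 and 2 were at 0.410 and 1.18 and dox replicates 1 and 2 at 0.188 and 0.645. The groups overlapped, and the no dox replicates differed from each other by more than the group means did. The 3 reads of dox replicate 1 have an exact Poisson interval from 0.619 to 8.77 reads, or 0.0388 to 0.550 CPM. The RPKM means were 0.235 ± 0.152 without dox and 0.120 ± 0.0868 with dox (n = 2 and 2, SD). The log2 fold change of -0.91 ± 0.66 (SE) was -1.64 without no dox replicate 1, -0.24 without no dox replicate 2, -0.19 without dox replicate 1 and -1.70 without dox replicate 2, so its size rested on single libraries. In both groups replicate 2 had the higher CPM for TBX2 and for TBX3, as it did for DLX2 and MSX1.

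TBX2 occupies chromosome 17, 61399843 to 61409466, plus strand. TBX2-AS1, a long noncoding RNA gene that spans TBX2 on the opposite strand without sharing an exon base, drew 10 and 4 reads in the no dox and 12 and 18 in the dox libraries. Its dox libraries lay above its no dox libraries in CPM, at a log2 fold change of 1.43 (SE 0.55, adjusted p = 0.442 in limma), while TBX2 itself had lower group means with dox. The neighbour TBX4 drew 61 and 62 reads in the no dox and 33 and 77 in the dox libraries, and BCAS3, on the other side, stood at a log2 fold change of 0.47 (SE 0.18, adjusted p = 0.433 in limma). A second opposite-strand transcript, ENSG00000267131, overlaps 28 of the 6082 TBX2 exon bases and had 0 reads, and LINC02875, which starts within 5 kb, had between 7 and 11 reads.

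Dox replicate 1 was the lowest library for TBX2, TBX3 and MSX1. It was also the library with the smallest total count and with 22 reads of COL1A1 against 82 to 89 in the others. The part of these values in the T-box results was not tested. Without that library, the members kept their signs and the median of the 5 log2 fold changes was -0.19.

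**Figure D3:**
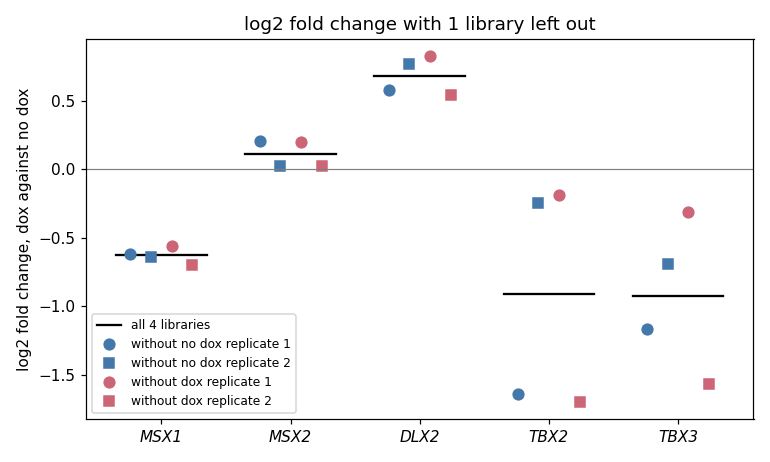
log2 fold change of dox against no dox for each gene with all 4 libraries (black line) and with 1 library left out (points, named in the key). DLX2, MSX1 and MSX2 stay within 0.15 of the line, and the points of TBX2 run from -1.70 to -0.19.

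The other members of these families were compared in the same fit over all genes. Of the 5 other DLX genes, DLX1 and DLX4 had enough reads to test. DLX4 drew 47 and 35 reads in the no dox and 38 and 47 in the dox libraries, for a log2 fold change of 0.46 (SE 0.31, adjusted p = 0.695 in limma), and neither gene was called, with 1 (DLX1) at an unadjusted p under 0.05. DLX3 and DLX5 had 0 reads and DLX6 had 1 read in all.

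Of 15 other T-box genes 6 were tested, 5 had 0 reads and 0 were called by limma, with 0 at an unadjusted p under 0.05. Their log2 fold changes had a median of 0.01, with 3 above 0 and 3 below. The highest were those of MGA (0.26 ± 0.14 SE), a T-box protein that also binds MAX, and TBX4 (0.16 ± 0.33 SE), a limb and lung mesenchyme gene. The lowest were those of TBX19 (-0.53 ± 0.34 SE), a pituitary factor, and TBX18 (-0.12 ± 0.23 SE). Per length, TBX18, between 0.728 and 1.02 RPKM, and TBX15, between 1.31 and 1.65 RPKM, stood above TBX3, at 0.137 to 0.458 RPKM, and TBX2 in each library.

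Of 18 other transcription factor genes known to respond to BMP in development, 8 were tested and 6 had 0 reads, among them HAND1, HAND2, GATA3 and GATA4. In limma 0 were called, 2 (GATA2 and HEY1) had an unadjusted p under 0.05, and the median log2 fold change was 0.09, with 5 of 8 above 0. GATA2, a blood and endothelial regulator, drew 144 and 171 reads in the no dox and 167 and 206 in the dox libraries, for a log2 fold change of 0.72 (SE 0.20, adjusted p = 0.257 in limma). HEY1, which BMP and Notch both induce, drew 72 and 77 reads in the no dox and 67 and 124 in the dox libraries (0.74, SE 0.27, adjusted p = 0.415 in limma). For both, the dox libraries lay above the no dox libraries in CPM, as they did for 18.7% of all genes tested. The lowest values were those of TFAP2A (-0.12 ± 0.20 SE), a neural crest factor, and NKX2-5 (-0.10 ± 0.46 SE), a heart factor.

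Another list, here called the immediate BMP-SMAD targets, was typed from general knowledge and held, among others, the ID genes and the inhibitory SMADs. Whether SMADs act directly on a listed gene or on a member was not tested. Of 10 such genes 8 were tested, each of the 8 had a positive log2 fold change (median 0.55), and 1, SMAD9, was called, while 5 (ID1, ID2, SMAD6, SMAD9 and NOG) had an unadjusted p under 0.05 in limma. In CPM, both dox libraries lay above both no dox libraries in 6 of the 8, against 18.7% of all genes tested. An unadjusted p under 0.05 in limma was found for 9.28% of all genes, in either direction. The list was chosen with earlier results of these data known, and its shares were not tested against those of all genes. SMAD9, a receptor-regulated SMAD that also feeds back on the pathway, rose from 20 and 24 reads to 60 and 96 (log2 fold change 2.20, SE 0.35, adjusted p = 0.0265 in limma). NOG, an antagonist of BMP ligands, had 1.36 (SE 0.41, adjusted p = 0.311 in limma), and the lowest values were those of ID3 (0.04 ± 0.10 SE) and SMAD7 (0.21 ± 0.28 SE). SMAD9 was not called in any of the 4 fits with 1 library left out, in which 0 genes were, MIB1 included. The log2 fold changes overlapped those of the members, since DLX2, at 0.68, stood above ID1, at 0.49, and ID2, at 0.61, and a difference between the lists was not tested. In mean RPKM over the 4 libraries, ID3, at 385, and ID1, at 105, stood far above every member, but SMAD9, at 0.500, SMAD6, at 0.554, SMAD7, at 1.06, and NOG, at 1.23, lay within the range of the members.

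**Figure D4:**
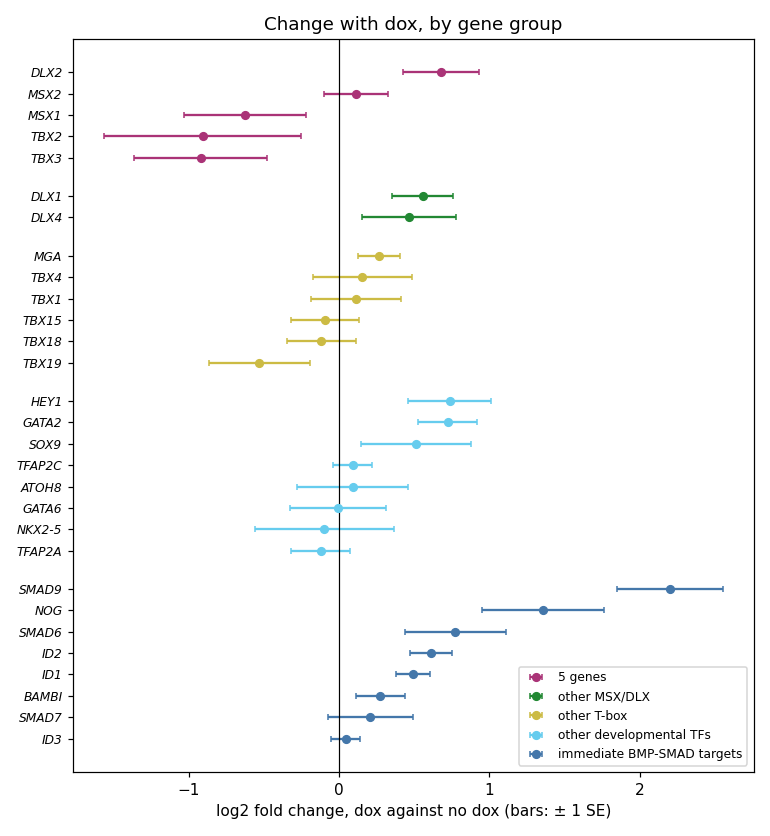
log2 fold change of dox against no dox (points) with 1 standard error on either side (bars), for the 5 genes and the tested genes of 4 other lists. The 5 genes run from -0.92 to 0.68, while the immediate BMP-SMAD targets run from 0.04 to 2.20.

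Upstream of the targets, 8 of 10 receptor and SMAD genes were tested and 0 were called by limma, with 0 at an unadjusted p under 0.05 and a median log2 fold change of -0.02. The highest values were those of SMAD1 (0.25 ± 0.15 SE) and BMPR2 (0.04 ± 0.14 SE), a signal transducer and a type II receptor, and the lowest those of ACVR2B (-0.17 ± 0.28 SE) and ACVR2A (-0.12 ± 0.13 SE), both type II receptors. Of 12 BMP ligand genes 4 were tested and 0 were called, with 1 (BMP8B) at an unadjusted p under 0.05. All 4 had a negative log2 fold change: BMP6 (-0.19 ± 0.14 SE), BMP2 (-0.26 ± 0.61 SE), BMP4 (-0.39 ± 0.30 SE) and BMP8B (-1.41, SE 0.52, adjusted p = 0.414 in limma). BMP8B had 30, 22, 11 and 5 reads, and both its dox libraries lay below its no dox libraries.

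Downstream, TBX2 and TBX3 are described as repressors of CDKN1A, CDKN2A, CDKN2B, CDH1 and NDRG1, among others. CDKN2A and CDKN2B, genes of cell cycle inhibitors, had 0 reads in every library, so no change could be seen in them. None of the other 3 was called by limma, 0 had an unadjusted p under 0.05, and the median log2 fold change was 0.20. CDH1, the E-cadherin gene, had 0.25 ± 0.17 (SE), NDRG1, a stress-response gene, 0.20 ± 0.12 (SE), and CDKN1A, the gene of the cell cycle inhibitor p21, 0.16 ± 0.15 (SE). All 3 had adjusted p-values of 0.671 or more (limma). TBX2 and TBX3 themselves had mean levels of 0.178 and 0.309 RPKM, and a link between them and these values was not tested.

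The genes most like a member over the 4 libraries were sought among 12344 genes whose mean count reached 50, which only DLX2 and MSX2 reached, by the root-mean-square difference in centred log2(CPM + 0.5). The 2 nearest to DLX2 were PLEKHB1, at 0.0274, and MITF, a melanocyte transcription factor gene, at 0.0289. Within 0.1 of DLX2 lay 68 genes. For MSX2, whose profile was nearly flat, 1776 genes lay within 0.1, and the nearest were the pseudogenes PAICSP5, at 0.00673, and EIF4A1P4, at 0.0105, whose reads are uncertain because they resemble their parent genes. These distances rest on 4 libraries and are a description.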

How the data were processed

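RNA-seq was performed on 4 samples of MIB1-iKO NCI-H838 cells, grouped and numbered as in the labels. Per the study's methods, the authors removed ribosomal reads, used GSNAP to align what was left to GRCh38, and counted exonic reads with HTSeqGenie. Whole-number read counts per gene were deposited. The authors' RPKM values divide the counts by gene length and depth with a further factor per sample: relative to no dox replicate 1 the divisors were 0.932, 0.649 and 0.771, where the total counts stood at 0.869, 0.653 and 0.699. Strand use in counting and the library kit of these samples are not given in the sources used here, and the methods name a RefSeq annotation where the identifiers are Ensembl.

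Symbols and positions came from GENCODE release 44 (57532 of 58302 identifiers matched). Genes that passed filterByExpr (16181) were, after the study's methods, scaled by library size, quantile-normalized, weighted with voom and fitted across all genes in limma 3.58.1 under R 4.3.3, with Benjamini-Hochberg adjustment over all genes tested. The scripts were tested on simulated data. Alternatives were edgeR 4.0.16, DESeq2 1.42.0, other scalings, filters, RPKM pseudocounts of 0.1 and 1, a replicate block and leaving out each library. CPM is the count scaled to a common library total, with no other normalization. For 2 samples against 2 the lowest p of an exact two-sided permutation test is 0.333, and p-values measure only the spread between these samples. A count of 0 allows up to 3 reads.

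The members and gene lists were chosen with earlier results of these data known. The lists were typed from general knowledge. 1 listed gene is not reported here and is in no list count. Named besides the members are MIB1 and the marker genes. In each list the called genes and those with the highest and lowest log2 fold change are named. The nearest or overlapping genes of each member and the 2 genes most alike are named too. TBX15, HAND1, HAND2, GATA3, GATA4 and the DLX genes without reads were named after their values were seen. So were ID1, ID2 and SMAD6, which had an unadjusted p under 0.05 in limma.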

Additional observations from a re-analysis of the deposited data

How the results depend on the processing

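The members called numbered 0 in the 9 other fits and at both other thresholds. With no filter beyond 1 read, on log2(RPKM + 0.1) and on log2(RPKM + 1), 0 genes were called at all, so those fits could call no member. At a mean count of at least 50 only DLX2 and MSX2 could be called. The remaining fits called from 5 genes (DESeq2) to 78 (replicate block) in all. In each of the 9 fits and of the 4 with 1 library left out, 2 members (DLX2 and MSX2) had a positive log2 fold change. The median over the members was 0.40 at a mean count of at least 50, where only DLX2 and MSX2 were kept, and -0.14 on log2(RPKM + 1), which understates changes of low genes; with 1 library left out it ranged from -0.70 to -0.19. On log2(RPKM + 1) the log2 fold changes of TBX2, TBX3 and MSX1 were -0.14, -0.19 and -0.21.

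Over all genes, limma called 6. With no filter beyond 1 read, on log2(RPKM + 0.1) and on log2(RPKM + 1), 0 genes were called, SMAD9 and MIB1 included, although 2092, 1442 and 1438 genes had an unadjusted p under 0.05; the cause was not tested. In these 3 fits 0 genes of the other lists were called, with 9, 8 and 8 at an unadjusted p under 0.05. Without the fold criterion 11 genes had an adjusted p not above 0.05. With 1 library left out, where the lone sample of a group is assumed to vary like the pair of the other, 0 genes were called in each of the 4 fits and 0 in the other lists, with 833 to 1043 genes at an unadjusted p under 0.05. With the replicate block 78 genes were called, 2 of them in the other lists (SMAD9 and NOG). An unadjusted p under 0.05 was found in 3276 genes, 2 members (DLX2 and TBX3) among them, from which nothing is read. The labels do not say what a replicate number stands for; the deviations of replicate 1 from its group mean correlated across genes between the groups at 0.23, over 2 pairs. Depth limits TBX2, TBX3 and MSX1, with mean counts of 12.3, 30.5 and 22.0 reads.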
